A study of Homo sapiens with 4 samples.

Results

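Protein tyrosine phosphatases and dual-specificity phosphatases were measured in THP1, a human monoblastic leukemia cell line, on day 2 after a single transfection. The cells had received miR-511 mimic or, as controls, negative control #1 mimic, each at 30 nM. The members are the non-control probes whose gene name is DUSP, PTPN or PTP4A with a number, or PTPR with a letter. They comprise 89 probes of 63 genes, out of 34127 probes and 27193 gene names on the Agilent whole genome array. There were 4 arrays, 1 per mimic in each of 2 independent experiments, and all cells were kept in DMEM/Ham's F12 medium with little serum. A mimic is a synthetic RNA duplex that delivers a mature miRNA, and these arrays do not read the mature miRNA itself. The 7 monocytic markers matched by name, CD14, CD33, CD68, CSF1R, ITGAM, MPO and SPI1, were well above background on all 4 arrays, and the epithelial markers EPCAM, CDH1 and KRT5 on none. The arrays also held signal for CD3D of T cells, for CD79A of B cells and for HBB of erythroid cells on all 4 arrays, CD2 and CD3E were well above background on 3, CD3G and MS4A1 stayed below, and none of these markers passed the test between the mimics.

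Protein tyrosine phosphatases remove phosphate from tyrosine residues and so oppose tyrosine kinases, through a cysteine in the active site. Receptor types (PTPR) span the plasma membrane, with CD45 (PTPRC) as the abundant form of white blood cells, and non-receptor types (PTPN) act inside the cell, among them SHP-1 (PTPN6) downstream of inhibitory receptors of myeloid cells. Dual-specificity phosphatases (DUSP) also act on serine and threonine, the MAP kinase phosphatases among them switch off ERK, JNK and p38, and the small PRL phosphatases (PTP4A) are attached to membranes by a lipid anchor.

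Several sequences are given because the results turn on them. The mature miRNA that the mimic supplies is shown with its seed, bases 2 to 8, in capitals, as RefSeq gives it on GRCh38.p14 at chr10:17845122-17845142, plus strand.
hsa-miR-511-5p: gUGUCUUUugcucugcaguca
The complement of this seed is the 7-letter site AAAGACA. It was searched as written in the probe sequences, which carry the sense strand of the transcripts, and it stood in 1 of the 89 phosphatase probes against 0.970% of all probes on the array. That probe measures DUSP6, a phosphatase specific for ERK (hg19 chr12:89742144-89742203, minus strand), and the 30 bases around the site, in capitals, are shown.
DUSP6: gataatctgggAAAGACAccaaatcatggg
The level of DUSP6 differed by 0.05 (standard error 0.19) on the log2 scale between the mimics, which did not pass the test. A probe covers only a short stretch of a transcript, so other sites were not searched.

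A pair of probes for DUSP11, an RNA 5′-triphosphatase, gave unequal changes and both are shown in lower case, 5′ to 3′. They lie on the minus strand of hg19 at chr2:74002075-74002134 and chr2:73993600-73993659. On the transcript they start at bases 397 and 862, which are 465 bases or 155 codons apart, and the reading frame from base 3 of the probe was free of stop codons in both.
DUSP11 at base 397: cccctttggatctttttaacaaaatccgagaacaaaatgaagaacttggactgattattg
DUSP11 at base 862: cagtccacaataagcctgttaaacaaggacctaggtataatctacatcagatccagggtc
The probe of PTPN6 was printed as 10 spots per array and shows the spread of copies of this sequence alone. That spread was wider than the spread of the PTPN11 probe printed as 10 spots. The PTPN6 probe lies at chr12:7069332-7069391 of hg19, plus strand, starting at base 1752 of its transcript.
PTPN6: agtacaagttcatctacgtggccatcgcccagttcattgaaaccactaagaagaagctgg

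Most of the family was detected, and the receptor class had the largest share of undetected probes. A probe was called well above background by the scanner software. Of the 89 phosphatase probes, 67 were well above background on all 4 arrays, 5 on 1 to 3 arrays and 17 on no array. Each array detected 67 to 69 of them, and no spot was saturated. The mimics were compared where both arrays of 1 mimic or of both detected the probe, which held for 68 probes of 50 genes, against 22638 of all probes on the array. All levels below are log2 intensities after quantile normalization. Because brightness depends on the probe, levels of different probes are compared only to choose which genes and probes to name. Normexp background correction, an alternative named below, added an offset of 50 to the intensities. Such an offset by itself shrinks the log2 differences of dim probes.

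**Figure D1:**
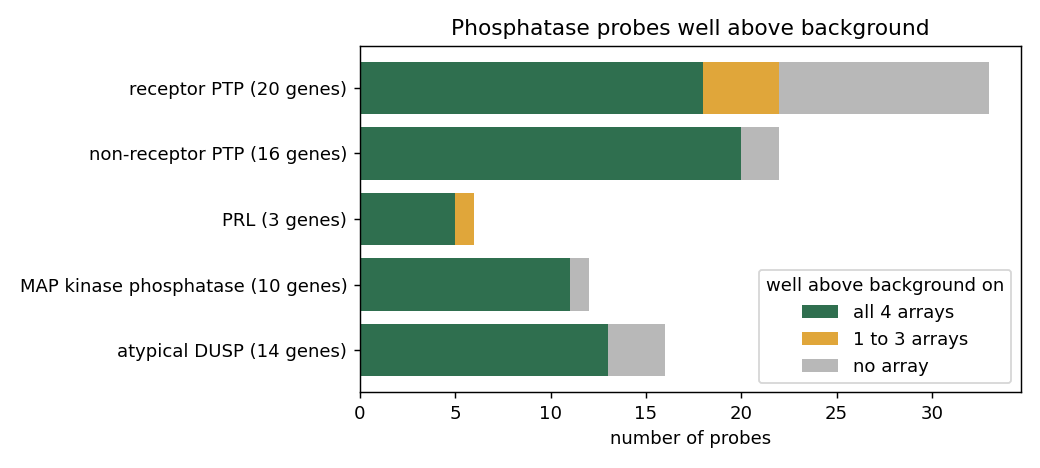
Number of phosphatase probes (horizontal axis) well above background on all 4 arrays, on 1 to 3 arrays or on no array, in the 5 classes, with the number of genes in each class. The receptor class held 11 of the 17 probes seen on no array.

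Among receptor phosphatases, 18 of 33 probes and 12 of 20 genes could be tested. PTPRC, PTPRA, PTPRJ, PTPRE, PTPRF, PTPRS, PTPRU, PTPRN2, PTPRB, PTPRH, PTPRK and PTPRO each had at least 1 probe well above background on all 4 arrays. The 8 genes that could not be tested were PTPRD, PTPRG, PTPRM, PTPRN, PTPRQ, PTPRR, PTPRT and PTPRZ1. Of these 8, PTPRD, PTPRG, PTPRM, PTPRQ and PTPRZ1 were detected by no array.
Among non-receptor phosphatases, 20 of 22 probes of 14 genes were well above background on all 4 arrays, and PTPN13 and PTPN14 on none. All 10 MAP kinase phosphatase genes were detected on all 4 arrays at 11 of 12 probes, the exception being the third probe of DUSP8. All 3 PRL genes were detected, at 5 of 6 probes on all 4 arrays. Of the 14 atypical dual-specificity phosphatases, 11 were detected on all 4 arrays, and DUSP13, DUSP21 and DUSP27 on none.

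Few phosphatase probes passed the test between the mimics. Of the 68 tested probes, 2 had an unadjusted limma p below 0.05, which is the threshold of the study, and both were lower with miR-511 mimic. This is 2.94% of the family, against 2.20% of all tested probes, 0.932% lower and 1.27% higher. Of the 2, the dimmer probe of PTP4A3 entered the test through its control arrays alone, and a probe admitted in this way can hardly be called as higher. With detection required on all 4 arrays, 1 of 67 probes passed, that of DUSP11, against 1.82% of all probes so tested. None passed after Benjamini-Hochberg adjustment, which covered all 22638 tested probes (adjusted p = 1.00 for each phosphatase probe, limma), nor did any probe of the array. The median log2 difference was 0.037 over the family and 0.0098 over all tested probes. In experiments 1 and 2 the median over the family was 0.019 and 0.015. The median size of the difference, regardless of sign, was 0.075 for the phosphatases and 0.079 for all tested probes.
The direction was the same in both experiments for 37 of the 68 probes, 22 higher and 15 lower, and this share of 54.4% stood beside 51.0% of all tested probes. The miR-511 arrays lay wholly above or below the control arrays for 14 of the 68 probes, where all tested probes gave 25.7%. Differences beyond 0.5 in size were found for 3 of the 68 probes, against 3.64% of all. These shares of the family lay close to or below those of the array. Because 2 arrays against 2 cannot give an exact two-sided permutation p below 0.333, single probes are described by limma's difference, its standard error and the study's threshold. Replicates were independent experiments on 1 cell line.
The precision allowed a bound for most members, as for most tested probes of the array. The 95% interval of the difference, from the limma fit, lay within a 2-fold change in either direction for 64 of the 68 probes. This share was 94.1%, against 90.7% of all tested probes. For 38 of the 68 it lay within 0.5 on the log2 scale, a share not taken over all tested probes. The half-width of the interval had a median of 0.38 over the family. The 4 probes whose intervals reached beyond a 2-fold change measured PTPN5, PTPRK, DUSP19 and the dimmer probe of PTP4A3.

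**Figure D2:**
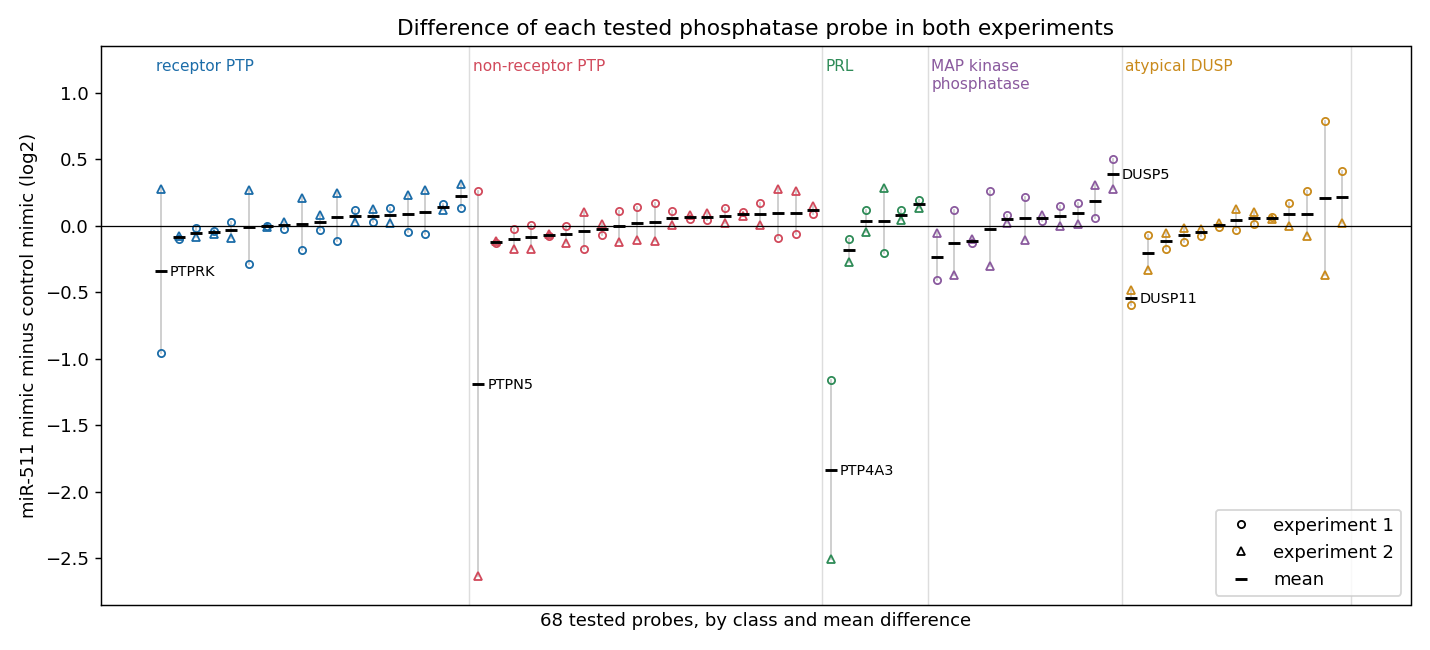
Log2 difference, miR-511 mimic minus control mimic, of each of the 68 tested probes, ordered by class and by mean, with experiment 1 as circles, experiment 2 as triangles and the mean as a bar. Most means lie near 0, and the probes of DUSP11, PTP4A3, PTPN5 and PTPRK reach furthest below it.

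In the receptor class 0 of 18 tested probes passed the unadjusted threshold, 11 had a higher and 7 a lower mean with miR-511 mimic, and differences ran from -0.34 to 0.22. PTPRC, which activates Src family kinases in leukocytes, was measured by 5 probes, whose differences lay between -0.0081 and 0.10. At its brightest probe the level was 12.16 with miR-511 mimic and 12.21 with control mimic in experiment 1, and 12.00 and 11.78 in experiment 2. The order of the mimics thus changed between the experiments. The same held for PTPRC at 3 other probes, with differences of -0.29, -0.12 and -0.065 in experiment 1 and 0.27, 0.24 and 0.27 in experiment 2. The probe nearest to the 3′ end, at chr1:198725541-198725600 of hg19, read 10.37 with both mimics in experiment 1, and 10.30 with miR-511 mimic and 10.31 with control mimic in experiment 2. The 5 probes read 1 gene and are no independent replicates.
PTPRA, another activator of Src kinases, had levels of 12.49 and 12.46 with miR-511 and control mimic in experiment 1 and 12.43 and 12.30 in experiment 2, a difference of 0.075 (standard error 0.11). PTPRS, a receptor for proteoglycans, was tested at 2 probes. Its brighter probe read 11.27 and 11.31 in experiment 1 and 10.81 and 10.87 in experiment 2, with miR-511 mimic named first, a difference of -0.050 (standard error 0.24). The other, for which no RefSeq accession matched, read 5.94 and 5.81, then 6.10 and 5.79, so that both miR-511 arrays lay above both control arrays. Its difference of 0.22 (standard error 0.10) was the highest of the class and did not pass the threshold.

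In the non-receptor class 0 of 20 tested probes passed, with 11 means higher and 9 lower. PTPN6, the phosphatase SHP-1, read 11.79 with miR-511 mimic and 11.86 with control mimic in experiment 1, and 11.72 and 11.70 in experiment 2. The SD over its 10 spots on an array was 0.16 to 0.19, which is a spread of single spots. The difference of PTPN6 between the mimics was -0.027 (standard error 0.11, 95% interval -0.32 to 0.27). PTPN11, the phosphatase SHP-2 that promotes Ras signalling, was also printed as 10 spots. It read 12.57 and 12.47 in experiment 1 and 12.54 and 12.47 in experiment 2, so that both miR-511 arrays lay above both control arrays. Its difference was 0.087 (standard error 0.089, 95% interval -0.16 to 0.33), and the second probe of the gene, printed once, gave -0.039.
PTPN12, which acts on focal adhesion proteins, read 13.64 with miR-511 mimic and 13.47 with control mimic in experiment 1. In experiment 2 it read 13.35 with both, and the difference was 0.088 (standard error 0.14). PTPN7, a hematopoietic phosphatase of ERK and p38, read 13.54 and 13.50, then 13.46 and 13.37, a difference of 0.067 (standard error 0.10). Neither PTPN12 nor PTPN7 passed the threshold.
PTPN9, which is attached to secretory vesicles, was lower in both experiments, at 9.32 against 9.45 and at 9.30 against 9.41. The arrays of the mimics did not overlap, and the difference of -0.12 (standard error 0.089) did not pass limma's threshold. PTPN2, a phosphatase of JAK and STAT proteins, had 3 tested probes with differences of -0.072, -0.086 and -0.097, the closest set among the genes with 3 or more tested probes. None of the 3 passed.

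Of the PRL phosphatases, which are named for their induction in regenerating liver, 1 of 6 tested probes passed, and it was lower. PTP4A1 read 13.40 and 13.29 with miR-511 and control mimic in experiment 1, and 13.41 and 13.46 in experiment 2, at the brightest of its 3 probes. The 3 probes of PTP4A1 differed by 0.035 to 0.081. PTP4A2 was higher in both experiments, at 10.17 against 9.98 and at 10.05 against 9.92, and its difference of 0.16 (standard error 0.10) did not pass.
PTP4A3 is the PRL member that the study names, in its list of primers for quantitative PCR after reverse transcription (RT-qPCR). The study used RT-qPCR to follow up genes called on the arrays in further independent experiments. PTP4A3 is not among the genes it reports as significantly changed there. The days shown for that assay are later than the day of the arrays. The probes of PTP4A3 were measured close to each other on chromosome 8 of hg19. The called probe, from 142441100 to 142441159, read 3.42 with miR-511 mimic and 4.58 with control mimic in experiment 1, and 1.76 and 4.27 in experiment 2. It was well above background on both control arrays and on neither array with miR-511 mimic. The difference between the means of these arrays is therefore only bounded, at at least 2.05-fold lower with miR-511 mimic. For this bound each miR-511 array entered with the dimmest signal that still counted as well above background on it. The probe's own signal entered instead if that was higher. The bound leaves out the spread between arrays. The 95% interval of the measured difference, from the limma fit, was -3.45 to -0.216 on the log2 scale, so smaller falls are not excluded. The measured means were 2.59 ± 1.17 (SD, n = 2) and 4.42 ± 0.22 (SD, n = 2), with adjusted p = 1.00 in limma. The call was lost when either control array was left out, at -1.68 without that of experiment 1 and -1.99 without that of experiment 2, and after normexp correction the difference was -0.22 and still passed.
The second PTP4A3 probe, from 142441433 to 142441492, was well above background on all 4 arrays. It read 5.05 with miR-511 mimic and 5.15 with control mimic in experiment 1, and 4.77 and 5.04 in experiment 2. Its difference was -0.19 (standard error 0.14) and did not pass, and the arrays of the mimics overlapped. Both probes thus went the same way, by different amounts, and the one that passed was the one near background.

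**Figure D3:**
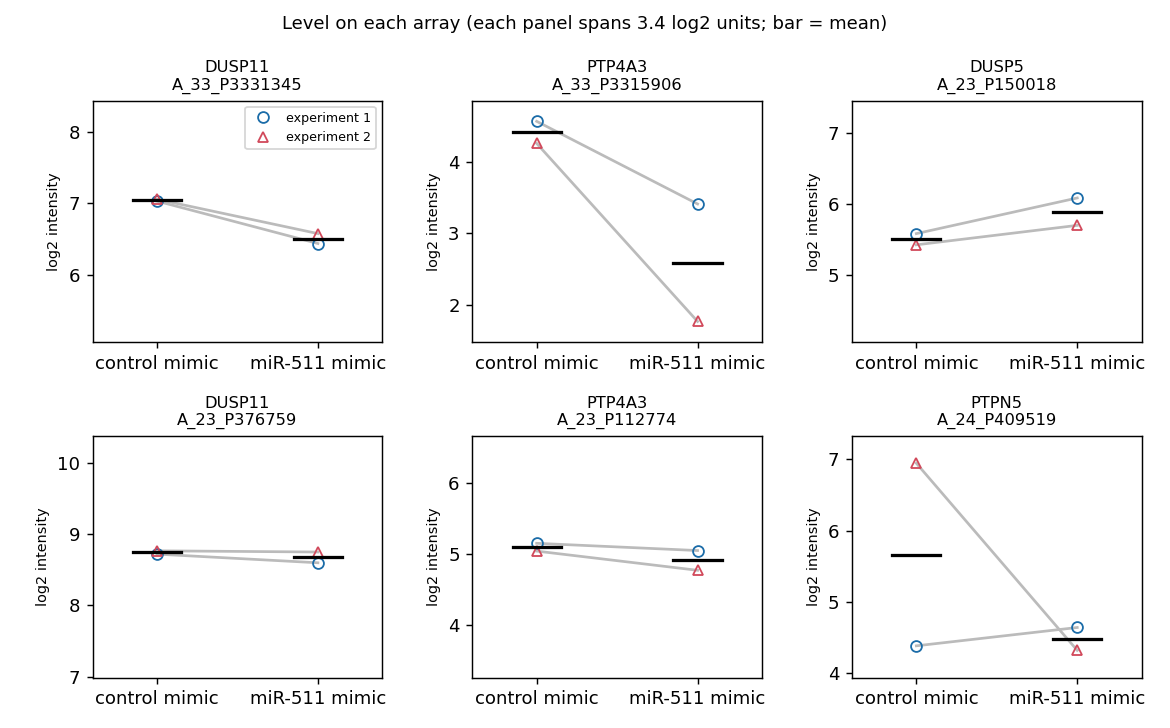
Log2 intensity on each array for both probes of DUSP11, both of PTP4A3, and those of DUSP5 and PTPN5, with circles for experiment 1, triangles for experiment 2, lines joining the arrays of an experiment and bars for the mean of each mimic. All panels span an equal range, so the slopes can be compared. The steep lines of the dimmer PTP4A3 probe end on arrays where it was not well above background, and that of PTPN5 rests on 1 high control array.

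Of the 11 tested probes of MAP kinase phosphatases 0 passed, with 7 means higher and 4 lower. DUSP6, the ERK phosphatase with the seed complement in its probe, read 12.56 and 12.48 in experiment 1 and 12.19 and 12.17 in experiment 2, with miR-511 mimic first. DUSP5, a nuclear phosphatase of ERK, had the largest rise among the tested probes of the family. It read 6.09 with miR-511 mimic and 5.58 with control mimic in experiment 1, and 5.70 and 5.43 in experiment 2. The arrays of the mimics did not overlap. The difference was 0.39 (standard error 0.17, adjusted p = 1.00 in limma) and did not pass the unadjusted threshold without a term for the experiment. With the experiment as a block it passed, with a standard error of 0.10. After background correction by normexp, with its offset of 50, the difference was 0.13 and did not pass. Without the miR-511 array of experiment 2 it was 0.58.
DUSP4, which acts on ERK, JNK and p38 in the nucleus, read 7.65 against 7.59 and 7.98 against 7.68, a difference of 0.18 (standard error 0.15) that was 0.013 without the miR-511 array of experiment 2. DUSP1, the early-response phosphatase of p38 and JNK, was printed as 10 spots. It read 5.13 with miR-511 mimic and 4.96 with control mimic in experiment 1, then 5.27 and 5.25, while its spots had an SD of 0.072 to 0.22 on an array. Its difference of 0.093 (standard error 0.14) did not pass.
DUSP2, a phosphatase of activated white blood cells, changed order between the experiments, at 9.27 against 9.05 in experiment 1 and 9.26 against 9.36 in experiment 2. DUSP8, which acts on JNK and p38, read 10.09 and 9.94, then 9.99 with both mimics, at its brightest probe. DUSP16, a JNK phosphatase, was lower in both experiments, at 3.98 against 4.39 and at 3.88 against 3.94. The DUSP16 difference of -0.23 (standard error 0.18) did not pass. It was -0.0078 without the control array of experiment 1, -0.46 and past the threshold without that of experiment 2, and -0.023 after normexp correction.

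**Figure D4:**
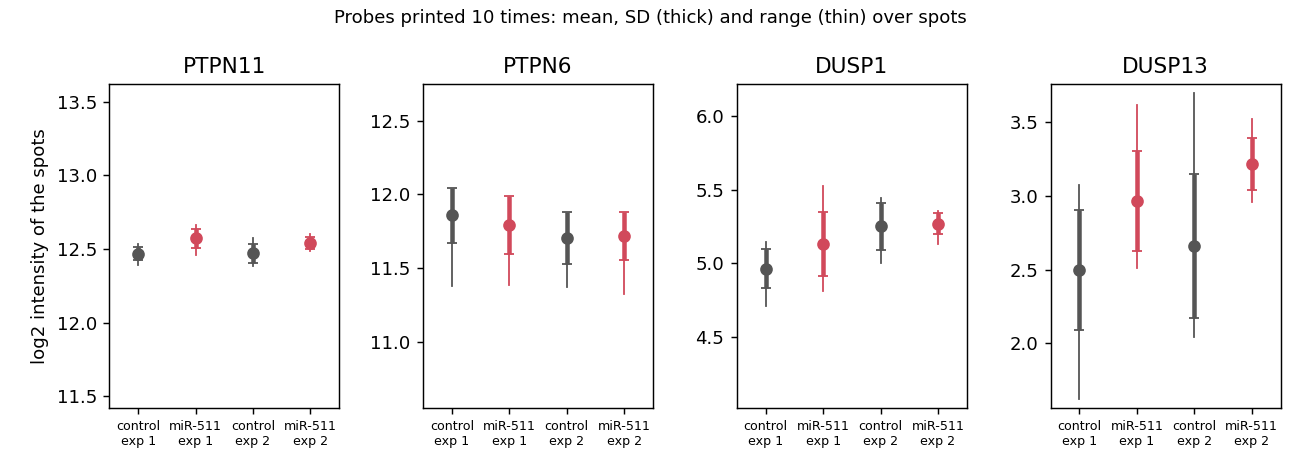
Log2 intensity over the spots of the phosphatase probes printed 10 times, per array, with the mean as a point, the SD as a thick bar and the range as a thin line, for control mimic in grey and miR-511 mimic in red. The spots of PTPN11 vary least, and those of DUSP13 lie near background.

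Of the 13 tested probes of atypical dual-specificity phosphatases, 1 passed, and it was lower. This was the DUSP11 probe at base 397 of the transcript, shown above, which read 6.44 with miR-511 mimic and 7.03 with control mimic in experiment 1, and 6.58 and 7.06 in experiment 2. The arrays of the mimics did not overlap, and the means were 6.51 ± 0.099 (SD, n = 2) and 7.05 ± 0.018 (SD, n = 2). The difference of -0.54 passed the unadjusted threshold (standard error 0.10, adjusted p = 1.00 in limma). It was -0.60 in experiment 1 and -0.48 in experiment 2. After background correction by normexp it was -0.33 (standard error 0.094) and still passed.
The DUSP11 probe at base 862 did not pass. It read 8.60 and 8.72 with miR-511 and control mimic in experiment 1, and 8.75 and 8.77 in experiment 2. Its log2FC was -0.069 (standard error 0.10), with arrays of the mimics overlapping. The probes of DUSP11 lay 0.47 apart on the log2 scale. Among the 13 genes with several tested probes this gap ran from 0.0069 to 1.65 with a median of 0.091, and 7 of the 13 genes had the same sign at all their probes. GC content was 35.0% in the probe at base 397 and 43.3% in the other, and its part in the difference was not tested.
The atypical genes DUSP12, DUSP23 and DUSP3 had differences near 0. DUSP12 read 13.22 with miR-511 mimic and 13.21 with control mimic in experiment 1, and 13.30 and 13.19 in experiment 2. DUSP23 read 13.26 and 13.27, then 13.23 and 13.20. DUSP3, also called VHR, a phosphatase of ERK and JNK, read 11.74 and 11.81, then 11.80 and 11.82. The differences of these 3 genes were 0.057, 0.0080 and -0.050, none past the threshold.
DUSP14 was lower in both experiments, at 9.91 against 9.99 and at 10.19 against 10.53, with a difference of -0.20 (standard error 0.23) that turned to 0.067 without the control array of experiment 2. DUSP26 was higher, at 4.47 against 4.05 and at 4.37 against 4.34, with a difference of 0.22 (standard error 0.14) that was 0.013 after normexp correction. Neither passed. DUSP13, printed as 10 spots, had at most 1 spot well above background on any array, and no difference is given for it.

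A few phosphatase probes read high on a single array. Over all probes of the array, 0.710% stood at least 2 log2 units above their own values on the other 3 arrays while well above background there, and among the phosphatases these were 4 of 89 probes. All 242 such probes of the array were printed once, so that no second spot on that array could be read. PTPN5, a phosphatase known from the brain, read 6.95 with control mimic in experiment 2, and 4.38 with control mimic in experiment 1. With miR-511 mimic it read 4.64 and 4.31, and it was well above background on all 4 arrays. Its difference of -1.19 had a standard error of 0.90 and rested on that 1 array, since experiment 1 alone gave 0.26.
PTPRT, an adhesion-type receptor, read 6.68 with miR-511 mimic in experiment 2 and was well above background there only, with 3.01, 1.91 and 1.62 elsewhere. PTPRR read 3.65 with control mimic in experiment 2 and 1.00 to 1.02 elsewhere. PTPRK, another adhesion-type receptor, had a probe at 3.44 with control mimic in experiment 1 and 1.26 to 1.29 elsewhere. A different PTPRK probe, detected on all 4 arrays, was also highest on that array, at 5.72, against 4.77 with miR-511 mimic in the same experiment and 4.18 and 3.91 in experiment 2. Thus 2 of the 3 PTPRK probes were highest with control mimic in experiment 1, and only the first of them met the rule of 2 log2 units. The third was not well above background anywhere. Over all probes, the 242 single-array highs were spread as 82 on the control array and 32 on the miR-511 array of experiment 1, and 63 and 65 on those of experiment 2.

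More phosphatase probes passed the test between the experiments than between the mimics. A fit with treatment and experiment as terms was read for the experiments after the values were seen. In it 13 of 68 probes had an unadjusted limma p below 0.05 between experiment 2 and experiment 1, 6 lower and 7 higher in experiment 2. Between the mimics, 3 of 68 had one in the same fit, DUSP5 beside DUSP11 and PTP4A3, against 3.95% of all tested probes. The share between the experiments was 19.1%, against 11.6% of all tested probes. No probe of the array passed adjustment (smallest adjusted p = 0.388, limma). The arrays of the experiments did not overlap for 39 of the 68 phosphatase probes, or 57.4%, where all tested probes gave 48.9%. The median size of the shift was 0.15 for the family and 0.12 over all tested probes.
Receptor phosphatases made up 7 of the 13 probes, with PTPRU counted at both of its probes, and 18 of the 68 tested probes. PTPRF, a receptor at cell contacts, read 10.51 with miR-511 mimic and 10.53 with control mimic in experiment 1, and 9.84 and 9.93 in experiment 2, so that it was lower by 0.68 and 0.60 in the second experiment. Its shift was -0.64 (standard error 0.080, past the unadjusted threshold, adjusted p = 0.388 in limma). PTPRH moved in parallel, from 7.59 and 7.62 to 7.01 and 6.93. The brighter probe of PTPRS shifted by -0.45, PTPRE by -0.44 and a PTPRK probe by -1.20. The last is the PTPRK probe detected on all 4 arrays and highest with control mimic in experiment 1.
PTPRU went up at both of its probes, by 0.42 at each. One read 5.75 and 5.78 in experiment 1 and 6.20 and 6.17 in experiment 2, with miR-511 mimic first. The other read 9.64 and 9.74, then 10.07 and 10.15, so that probes of unequal brightness shifted alike. DUSP6 was lower in experiment 2 by 0.34 (standard error 0.079), while DUSP8, DUSP10, DUSP14, PTPN3 and PTPN22 were higher at 1 probe each, by 0.29, 0.29, 0.41, 0.53 and 0.37. What differed between the experiments besides their number is not given in the sources used here.

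**Figure D5:**
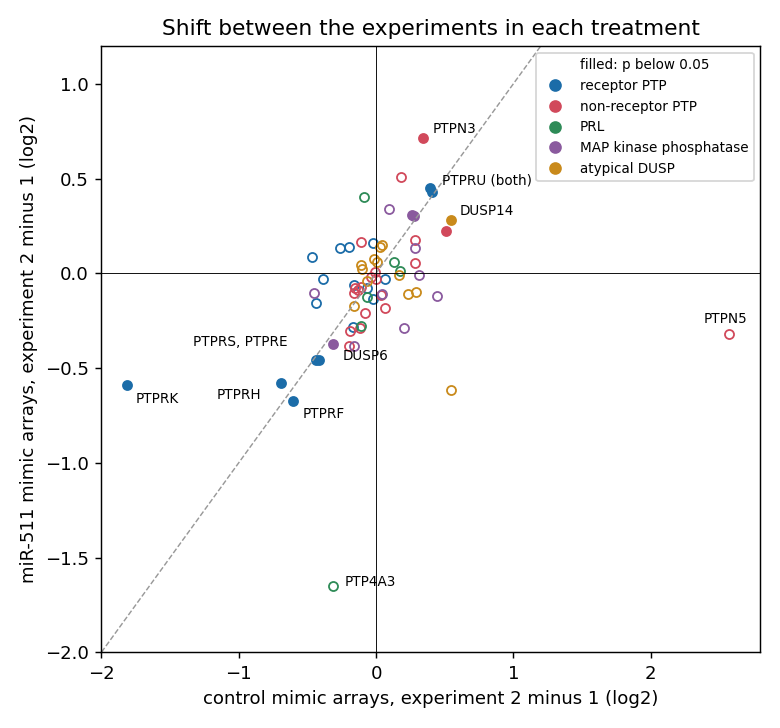
Shift of each tested phosphatase probe from experiment 1 to experiment 2 on the log2 scale, in the control mimic arrays (horizontal) and the miR-511 mimic arrays (vertical), coloured by class, with filled points for an unadjusted limma p below 0.05 and the dashed line for equal shifts. PTPRF, PTPRH, PTPRS, PTPRE, PTPRU and DUSP6 lie near the dashed line, and PTPN5 and PTP4A3 far from it.

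Partners and relatives of the phosphatases were followed as lists. Of the MAP kinases, 15 probes of 9 genes were tested, 0 passed as higher and 1 as lower. This was the brighter probe of MAPK11, a p38 kinase, which read 8.77 with miR-511 mimic and 9.92 with control mimic in experiment 1, and 8.78 and 9.28 in experiment 2, a difference of -0.83 (standard error 0.24). The dimmer MAPK11 probe gave -0.30 and did not pass. MAPK11 is also in the study's list of RT-qPCR primers, and it is not among the genes reported as significantly changed by that assay. Of the ERK feedback and early response genes, 0 of 12 tested probes passed in either direction. Among them EGR1 was higher with miR-511 mimic by 1.68 in experiment 1 and lower by 0.065 in experiment 2.
Of the Src family kinases and CSK, which PTPRC and PTPRA act on or with, 0 of 8 tested probes passed. Of a list set up by name as other cysteine-based phosphatases, among them the CDC25 genes, 0 of 25 tested probes passed. The median difference of this list was 0.036. It also held PTPLA and PTPLB, now named as dehydratases, and the cysteine was not checked in its members. Of the inhibitory receptors and docking proteins that bind SHP-1 and SHP-2, 1 of 14 tested probes passed, and it was lower. It measured CD300A, an inhibitory receptor of myeloid cells, with differences of -0.29 in experiment 1 and -0.57 in experiment 2 and of -0.43 (standard error 0.12) over both, and the second CD300A probe gave -0.23 without passing. None of these passed adjustment over all tested probes (adjusted p = 1.00 for each named probe, limma).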

How the data were processed

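RNA of 4 THP1 samples was labelled with a single dye and hybridized to 1 slide. The authors deposited scanner output in which the processed intensity is background-subtracted and not normalized between arrays, and a table of log2 values that they had quantile normalized. The submitters' notes name Agilent Feature Extraction 10.5.1.1, and the file headers 10.7.3.1. Here processed intensities were put on the log2 scale, 232 to 301 marked outlier spots per array were left out, arrays were quantile normalized over the non-control spots, and spots of one probe were averaged. A probe printed 10 times was well above background when over 50% of its spots were. limma 3.58.1 in R 4.3.3 (lmFit, eBayes, two-sided, no term for the experiment) ran over all 22638 tested probes, and Benjamini-Hochberg adjustment covered all of them. The functions were tested on simulated data. The alternatives tried are named in the closing section. The number of arrays limits the precision.

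Members and lists were chosen with earlier results of these data known. Named probes were those past the threshold, the brightest genes of each class, the 5 largest rises and falls going the same way in both experiments, genes whose probes differ by over 0.5, probes printed 10 times and PTP4A3. The probes high on 1 array, DUSP11's second probe, the other probes of named genes and those shifting between experiments were named after their values were seen. The experiment number pairs the arrays per the labels, and across probes, arrays of the same experiment deviated together from the mean of their treatment (correlation 0.271).

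Probe coordinates are those of the files (hg19). RefSeq genes of GRCh38.p14 matched 87 of 89 probes by accession, 85 with the same name. DUSP13 is now DUSP13A and DUSP27 is STYXL2. PTPLA and PTPLB, included among other cysteine phosphatases by name, are now named as dehydratases. Some markers and list members are not reported here.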

Additional observations from a re-analysis of the deposited data

How the results depend on the processing

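With 2 arrays per mimic, a change under 0.38 on the log2 scale, the median half-width, could typically not be told from 0. The count of 2 of 68 phosphatase probes past the unadjusted threshold stood beside 2.20% of all tested probes. Without the filter on dim probes it was 4 of 89, against 3.02% of all. There DUSP13, PTPRM and PTPRN were called near background and PTP4A3 was not. The count was 1 of 67 when a probe had to be detected by all 4 arrays, against 1.82% of all. With the brightest probe of each gene it was 0 of 50. Scaling to the 75th percentile, keeping outlier spots, the authors' own log2 values and an intensity trend in eBayes were also tried. Each of these called 2 of 68, DUSP11 and PTP4A3, against 2.11%, 2.20%, 2.15% and 1.26% of all in that order. By the plain equal-variance test of each probe the count was 4 of 68, against 3.13% of all. The last called PTPN2, PTPN9 and PTPN11 and not PTP4A3. With the replicate block the count was 3, against 3.95% of all tested probes. DUSP5 was added, and the block changed no other call of a named phosphatase. No probe of the family passed adjustment under any alternative. Leaving out 1 array at a time, the difference of the called DUSP11 probe was -0.61 to -0.47. PTP4A3 was not called without control mimic replicate 1 or without control mimic replicate 2, at -1.68 and -1.99, kept its call without miR-511 mimic replicate 1 (-2.66) and without miR-511 mimic replicate 2 (-1.01), and its difference was -0.22 after normexp correction. DUSP5 was 0.19 to 0.58 with an array left out, and passed without miR-511 mimic replicate 2.

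The median difference of 0.037 was 0.0099 after normexp correction, 0.050 without the filter, 0.052 with the brightest probe of each gene and 0.0013 to 0.031 with an array left out. The causes were not tested. PTPN12 turned to -0.048 after normexp correction. With an array left out, named probes near 0 changed sign, as the range was -0.48 to 0.067 for DUSP14, -0.026 to 0.042 for DUSP23, -0.051 to 0.24 for DUSP1, -0.10 to 0.21 for DUSP2, -0.14 to 0.24 for DUSP6, -0.10 to 0.051 for PTPN6, -0.00032 to 0.13 for PTPN7, -0.055 to 0.23 for PTPN12, -0.051 to 0.12 for PTP4A1, -0.0052 to 0.16 for PTPRA, -0.13 to 0.31 for PTPRC and -0.28 to 0.18 for PTPRS, each at the brightest probe of the gene. Without a change of sign, the range was -0.46 to -0.0078 for DUSP16, 0.071 to 0.36 for DUSP26, 0.013 to 0.35 for DUSP4, 0.098 to 0.22 for PTP4A2, 0.14 to 0.30 for the dimmer PTPRS probe and -0.32 to -0.047 for the brighter PTP4A3 probe. After normexp correction these last 2 probes gave 0.073 and -0.080, and PTPN9 gave -0.066. The count of phosphatase probes differing between the experiments was 11 to 14. It was 13 with the main processing, where 11.6% of all tested probes differed, and that share was not taken for the alternatives. A slide block was not run, since all arrays came from 1 slide.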
